A study of Mus musculus with 4 samples.

Results

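The 29 genes described here mark radial glia and astrocytes. They were chosen by symbol from a list and make up 29 of the 32681 genes in the deposited table. Of these, 12 were taken as progenitor-type (Pax6, Fabp7, Prom1, Ednrb, Ddah1, Id4, Hopx, Dbi, Mt3, Ptprz1, Emx2 and Gli3) and 17 as astrocyte-type (Aqp4, Aldh1l1, Gja1, Sparcl1, Apoe, Clu, Glul, Fgfr3, Acsl6, Mlc1, Ntsr2, Bcan, Cst3, Mt1, Mt2, Lrig1 and Tspan12). RNA sequencing covered 4 cultures of primary neurons from the neocortex of CD-1 mouse embryos at embryonic day 13, kept in Neurobasal medium with B27. A control short hairpin RNA (shRNA) was transfected into 2 cultures, and an shRNA against DcpS into the other 2. DcpS is the scavenger enzyme that hydrolyses the cap remaining on short mRNA fragments. No genetic change is named for either group, and the embryos were wild type. The labels do not say what share of cells took up the shRNA, nor that the cultures came from separate animals or litters, so the p-values speak only of the spread among these 4 samples, and that spread may be technical.

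Radial glia are the progenitors that line the ventricle of the embryonic cortex. They divide to give neurons, directly or through intermediate progenitors, and late in development many of them turn to making astrocytes. The transition is gradual, and many genes used as astrocyte markers in the adult brain, among them Fgfr3 and Glul, are already transcribed in radial glia. In bulk RNA from a culture, fewer cells of a type and less RNA per cell cannot be told apart.

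Libraries held 17754768 to 21793685 recovered reads, and 26847 to 27650 genes had reads. A count of 0 would allow up to 3 reads, which is 0.138 to 0.169 CPM (reads scaled by library total), for counting error only. Differences between libraries within a group exceeded sampling noise (chi-square per degree of freedom 2.14 between controls and 3.98 between DcpS shRNA libraries). Levels are given as normalised read counts, the deposited values, which are reads divided by a library factor. The targeted gene Dcps had 499.8 and 507 normalised reads in controls 1 and 2, and 114.5 and 119.6 in DcpS shRNA libraries 1 and 2. This left 23.3% of the control level (log2 fold change −2.10, SE 0.11; limma, Benjamini-Hochberg adjusted p 1.521e-08). Neuron markers were high in every library, with a summed level of 5249 to 5454 CPM over 14 genes. Markers of astrocytes and radial glia were also present in every library, so the cultures were not neurons alone.

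All 29 genes had reads in all 4 libraries and passed the filter on low counts. Under DcpS shRNA, 5 of them fell (Aqp4, Gja1, Hopx, Sparcl1 and Apoe), 5 rose (Mt2, Gli3, Mt1, Bcan and Dbi) and 19 did not pass the test. Among all 18110 genes tested, 3.65% were called lower and 2.14% higher, 5.79% in either direction (limma, Benjamini-Hochberg adjusted p under 0.05). The 29 genes were chosen with earlier results of these data known, so nothing is read from their count beyond this. Their median log2 fold change was 0.0048, against 7e-04 over all genes tested, and their median absolute log2 fold change was 0.147, against 0.114. Their share of all reads was 0.263% and 0.260% in the controls and the same, 0.263% and 0.260%, under DcpS shRNA. The summed level of the 29 genes was thus nearly equal while single members moved in opposite directions. The groups did not overlap in 20 of the 29, 10 lower and 10 higher, while 48.4% of all genes tested had groups that did not overlap. Without control 2 only 2 of the 29 were called higher, and DESeq2 on the recovered reads called 2 lower (Gja1 and Sparcl1) and 2 higher (Gli3 and Mt2).

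**Figure D1:**
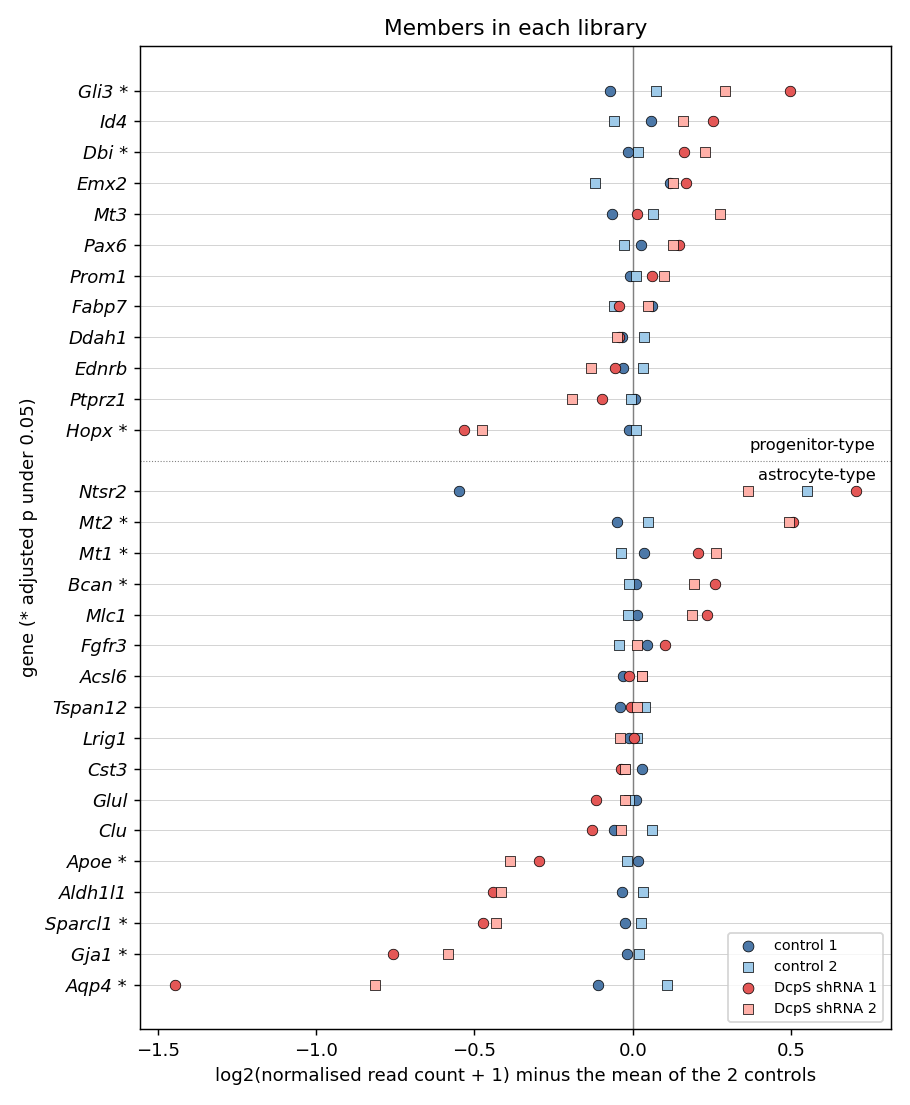
Each row is a gene and each point a library, with log2(normalised read count + 1) minus the mean of the 2 controls on the x axis. Blue points are the controls, red and pink points the DcpS shRNA libraries, and asterisks mark the 10 called genes, with Aqp4 and Gja1 farthest to the left and Mt2 and Gli3 to the right among them.

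The astrocyte-type genes that fell code for proteins of the plasma membrane, of lipid transport and of the extracellular space. Aqp4, the water channel of astrocyte endfeet (GRCm38 chr18:15389496-15410982, minus strand, GENCODE M21), had 58.9 and 68.7 normalised reads in the controls and 22.7 and 35.8 under DcpS shRNA. Both DcpS shRNA libraries were below both controls, and their mean fell from 63.8 ± 6.93 to 29.2 ± 9.22 (± SD, n = 2 for each group). Its log2 fold change was −1.13 (SE 0.25; limma adjusted p 0.0119), with a value of −1.45 without DcpS shRNA 2 and −0.81 without DcpS shRNA 1. The call ended with DESeq2 (adjusted p 0.103, the highest of the 12 alternatives that tested it, which began at 7.126e-05). Aqp4 was also among the lowest of the 29 genes in level per length, at 0.377 RPKM (reads scaled by exon length and library total), and its reads are few.

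Gja1, which codes for connexin 43, the main gap junction protein of astrocytes and also of radial glia (chr10:56377330-56402513, plus strand), had 688 and 706 normalised reads in the controls. Under DcpS shRNA it had 412 and 465, well below either control. The mean fell from 697 ± 12.5 to 438 ± 37.7, which is 62.9% of the control level (± SD, n = 2 for each group). Its log2 fold change was −0.67 (SE 0.08; limma adjusted p 8.147e-05), and it was called in all 13 alternatives. Mlc1, a membrane protein of astrocyte endfeet linked to volume regulation, had 633 and 620.4 normalised reads in the controls and 738 and 714 under DcpS shRNA. Its groups did not overlap, and its log2 fold change of 0.21 (SE 0.07) missed the threshold (limma adjusted p 0.0942). The water channel and the connexin thus fell, while the value of Mlc1, found at the same endfeet, lay on the other side of 0.

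Sparcl1, or hevin, a secreted matricellular protein with which astrocytes promote synapse formation (chr5:104079111-104113733, minus strand), had 2048 and 2123 normalised reads in the controls and 1503 and 1547 under DcpS shRNA. The mean fell from 2085 ± 53.2 to 1525 ± 31.0 (± SD, n = 2 for each group), and each library lay close to its group mean. Its log2 fold change was −0.45 (SE 0.06; limma adjusted p 9.101e-05), and like Gja1 it was called in all 13 alternatives. Bcan, the chondroitin sulfate proteoglycan brevican of the neural matrix (chr3:87987531-88000230, minus strand), moved the other way. It had 1299.8 and 1279 normalised reads in the controls and 1545 and 1474 under DcpS shRNA. The mean rose from 1289 ± 14.8 to 1509 ± 49.9 (± SD, n = 2 for each group), with a log2 fold change of 0.23 (SE 0.06; limma adjusted p 0.0278). The adjusted p of Bcan ran from 0.00502 to 0.184 over the 13 alternatives. Its call ended with DESeq2 (0.164) and without control 1 (0.101), control 2 (0.184) or DcpS shRNA 1 (0.0519). Cst3, which codes for the secreted protease inhibitor cystatin C, had overlapping groups, with 2239.5 and 2152 normalised reads in the controls and 2139.7 and 2160.1 under DcpS shRNA. Its log2 fold change was −0.03 (95% interval −0.14 to 0.08).

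Apoe, the apolipoprotein that carries lipids from glia to neurons (chr7:19696109-19699188, minus strand), had 559.6 and 547 normalised reads in the controls and 451 and 422 under DcpS shRNA. The mean fell from 553 ± 9.22 to 437 ± 20.0 (± SD, n = 2 for each group), a log2 fold change of −0.34 (SE 0.08; limma adjusted p 0.0174). Over the 13 alternatives its adjusted p ran from 0.00198 to 0.142, and the call ended without control 1 (0.0659) and with DESeq2 (0.142). Clu, or apolipoprotein J, is the other apolipoprotein among the 29 genes. Its groups overlapped, at 1057.5 and 1149.6 normalised reads in the controls and 1009 and 1075 under DcpS shRNA (log2 fold change −0.08, 95% interval −0.22 to 0.06).

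Intracellular lipid binding was represented by Fabp7 and Dbi, both progenitor-type. Fabp7, the brain fatty acid-binding protein and a classical radial glia marker, had the highest level per length of the 29 genes (mean 307 RPKM). It had 7914 and 7280.2 normalised reads in the controls and 7366 and 7847 under DcpS shRNA, so the DcpS shRNA values lay between those of the controls. Its log2 fold change was 0.0023, with a 95% interval of −0.12 to 0.12. Dbi, the acyl-CoA-binding protein that also acts as a diazepam-binding peptide (chr1:120113280-120121078, minus strand), had 2086 and 2130 normalised reads in the controls and 2356 and 2468.5 under DcpS shRNA. The mean rose from 2108 ± 31.4 to 2412 ± 79.7 (± SD, n = 2 for each group), a log2 fold change of 0.19 (SE 0.05; limma adjusted p 0.0447). This was the call nearest to the threshold. It ended with DESeq2 (0.181) and without control 1 (0.279), control 2 (0.173) or DcpS shRNA 2 (0.0812), over a range of 0.00347 to 0.279 in the 13 alternatives.

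**Figure D2:**
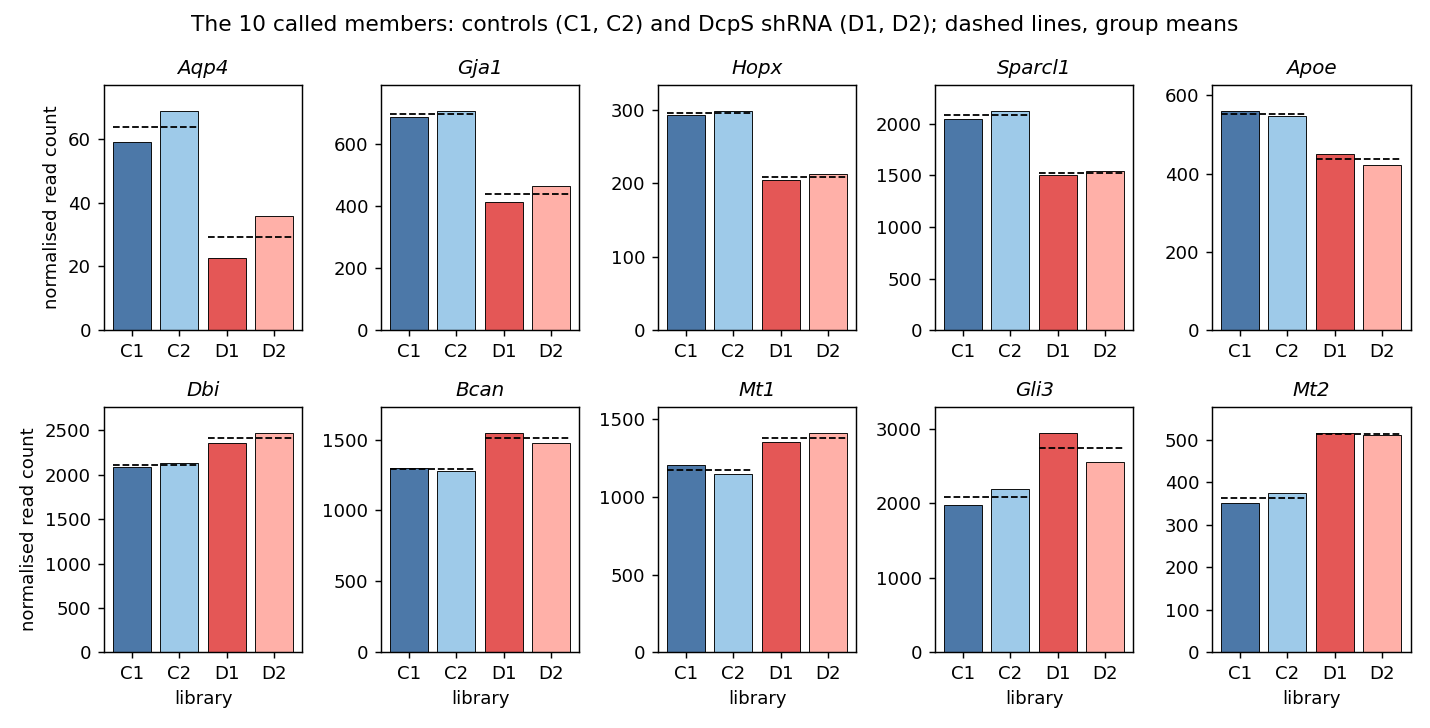
Bars give the normalised read count of the 10 called genes in each library, with the axis from 0 and dashed lines at the group means. The upper row holds the 5 genes that fell and the lower row the 5 that rose, and in each panel both DcpS shRNA libraries lie on the same side of both controls.

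The metallothioneins Mt1, Mt2 and Mt3 are small cysteine-rich proteins that bind zinc and copper, and Mt1 and Mt2 are known to be induced by metals and glucocorticoids. The genes lie side by side on chromosome 8, all on the plus strand: Mt3 at chr8:94152607-94154146, Mt2 at chr8:94172664-94173568 and Mt1 at chr8:94179082-94180327 (GRCm38, GENCODE M21). Transcription of metallothionein genes in response to zinc runs through metal response elements bound by the factor MTF1. The promoters are shown because the neighbours Mt1 and Mt2 both rose, with Mt3 for comparison, and differences between the 3 genes were not tested. Each runs from 250 bases before to 50 after the RefSeq start (GRCm38.p6, plus strand), 5′ to 3′, in lower case, with capitals for matches on either strand to the letters TGCGCNC or TGCACNC, the core of the metal response element.
Mt3, chr8:94152357-94152656: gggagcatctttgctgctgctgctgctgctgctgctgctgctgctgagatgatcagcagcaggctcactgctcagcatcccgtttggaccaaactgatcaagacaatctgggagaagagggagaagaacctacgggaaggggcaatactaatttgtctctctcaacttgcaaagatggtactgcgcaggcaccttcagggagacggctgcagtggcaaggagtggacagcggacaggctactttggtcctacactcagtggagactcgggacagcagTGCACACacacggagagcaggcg
Mt2, chr8:94172368-94172667: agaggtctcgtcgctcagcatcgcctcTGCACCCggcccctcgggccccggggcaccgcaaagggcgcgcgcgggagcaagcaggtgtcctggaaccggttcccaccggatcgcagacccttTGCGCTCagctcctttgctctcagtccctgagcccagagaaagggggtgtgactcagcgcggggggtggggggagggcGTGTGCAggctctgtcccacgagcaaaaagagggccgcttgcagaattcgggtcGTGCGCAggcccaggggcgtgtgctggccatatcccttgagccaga
Mt1, chr8:94178839-94179138: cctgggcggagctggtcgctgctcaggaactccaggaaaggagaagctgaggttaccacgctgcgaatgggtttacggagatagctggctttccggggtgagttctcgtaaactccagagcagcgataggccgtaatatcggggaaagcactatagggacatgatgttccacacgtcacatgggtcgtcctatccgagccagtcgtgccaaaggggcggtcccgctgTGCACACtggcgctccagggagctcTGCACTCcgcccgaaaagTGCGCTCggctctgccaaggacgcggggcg
The window of Mt2 held 4 matches, that of Mt1 held 3 and that of Mt3 held 1. Of 32851 promoters of this length in the RefSeq table, 25.7% held at least 1 match, 1.97% at least 3 and 0.517% at least 4. A match is a description of the letters and not a site of binding.

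Mt2 had 351 and 375 normalised reads in the controls and 515 and 511 under DcpS shRNA. Both DcpS shRNA libraries lay near 513, far above either control. The mean rose from 363 ± 17.5 to 513 ± 3.15 (± SD, n = 2 for each group), a log2 fold change of 0.50 (SE 0.08; limma adjusted p 0.00166), and the call held in all 13 alternatives. Mt1 had 1204 and 1144.5 normalised reads in the controls and 1354 and 1409 under DcpS shRNA, again without overlap. Its mean rose from 1174 ± 42.0 to 1382 ± 39.2 (± SD, n = 2 for each group), a log2 fold change of 0.23 (SE 0.06; limma adjusted p 0.0278). Over the 13 alternatives the adjusted p of Mt1 ran from 0.00470 to 0.256, and its call ended without control 2 (0.256), without DcpS shRNA 2 (0.0525) and with DESeq2 (0.172). Mt3, the form named for growth inhibitory activity in neurons, had 555 and 607 normalised reads in the controls and 586 and 703 under DcpS shRNA. Its groups overlapped, and its log2 fold change of 0.14 (SE 0.09) was not called (limma adjusted p 0.412). It passed only without DcpS shRNA 1 (0.0374, in a range of 0.0374 to 0.967). Per length, Mt1 had the highest mean of these genes (51.7 RPKM), followed by Mt2 (37.6 RPKM) and Mt3 (29.0 RPKM). These values depend on the annotated exon lengths, 1246, 588 and 1066 bases for Mt1, Mt2 and Mt3. For Mt1, but not for the other genes, the annotated exons together cover the whole span of the gene.

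Exons of Mt2 overlap those of Gm45774, an antisense gene, over 73.5% of their length. Gm45774 had 12.3 to 17.3 normalised reads per library, far fewer than Mt2, but reads of the shared bases cannot be told apart unless strand was used, and its use is not given in the sources used here. Nor is the treatment of reads matching more than 1 gene, so values of the metallothioneins and of other genes with similar copies are uncertain to that extent. Of 10 genes of metal and redox handling (Mtf1, Slc30a1, Slc30a10, Slc39a10, Slc39a14, Hmox1, Gclc, Gclm, Slc30a4 and Slc30a5), 0 were called by limma, with 2 at an unadjusted p under 0.05, and edgeR and DESeq2 also called 0. Those 2 were the zinc importers Slc39a10 (log2 fold change −0.19, SE 0.06) and Slc39a14 (−0.30, SE 0.10). Mtf1 had 580.6 and 593 normalised reads in the controls and 606 and 603 under DcpS shRNA (log2 fold change 0.04, SE 0.07), and the zinc exporter Slc30a1 had a value of 0.23 (SE 0.12). The list's values ran from −0.30 to 0.23, with 5 below 0 and 5 above. A count of 0 of 10 is near the 5.79% called among all genes tested, and nothing is read from it.

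Transcription regulators made up 5 of the progenitor-type genes. Gli3, a zinc finger factor of Hedgehog signalling that acts largely as a repressor in the dorsal forebrain (chr13:15463235-15730026, plus strand), had 1982 and 2193 normalised reads in the controls and 2941 and 2550.1 under DcpS shRNA. Both DcpS shRNA libraries were above both controls, although they also differed from each other more than the controls did. The mean rose from 2087 ± 149 to 2746 ± 276 (± SD, n = 2 for each group), a log2 fold change of 0.39 (SE 0.07; limma adjusted p 0.00258), and the call held in all 13 alternatives. Hopx, an atypical homeodomain protein that does not bind DNA and a marker of outer radial glia (chr5:77086988-77115121, minus strand), moved the other way. It had 294 and 298 normalised reads in the controls and 204 and 212 under DcpS shRNA. The mean fell from 296 ± 3.41 to 208 ± 5.58 (± SD, n = 2 for each group), a log2 fold change of −0.50 (SE 0.10; limma adjusted p 0.00759). DESeq2 did not call it (adjusted p 0.0733, in a range of 0.000305 to 0.0733 over the 13 alternatives). Hopx shares 27.2% of its exon length with the antisense gene Hopxos, which had 3.1 to 7.8 normalised reads per library and was not tested.

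Pax6, Id4 and Emx2 are factors of dorsal cortical progenitors, and none of them passed the test. Pax6, a homeodomain factor that directs neurogenesis from radial glia, had 2680.4 and 2581 normalised reads in the controls and 2913 and 2869.7 under DcpS shRNA (log2 fold change 0.14, 95% interval 0.03 to 0.25; limma adjusted p 0.161). Id4, an inhibitor of basic helix-loop-helix factors, had 1964 and 1810.1 normalised reads in the controls and 2247 and 2105 under DcpS shRNA. Its groups did not overlap, and its log2 fold change of 0.21 (SE 0.06) lay just outside the threshold (limma adjusted p 0.0522). In the alternatives its adjusted p ran from 0.00206 to 0.463, and it was called with no filter (0.0368), with the replicate block (0.0131), without control 1 (0.0398) and without DcpS shRNA 2 (0.00206). Emx2, a homeobox gene of cortical area patterning, had 673 and 570.2 normalised reads in the controls and 696 and 676 under DcpS shRNA (log2 fold change 0.15, 95% interval −0.03 to 0.32). Of the 5 regulators, then, Gli3 rose, Hopx fell, and the values of the other 3 lay between 0.14 and 0.21.

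Surface receptors and other membrane proteins had 0 calls among 7 genes in limma and edgeR, and 1 of them (Ptprz1) had an unadjusted p under 0.05 in limma. DESeq2 also called 0 but gave no adjusted p for Ntsr2. With 5.79% of all genes tested called by limma, 0 of 7 is near the background, and nothing is read from it. Ptprz1, a receptor-type tyrosine phosphatase with a chondroitin sulfate ectodomain, carried the most reads of the 29 genes. It had 12002 and 11892 normalised reads in the controls and 11159 and 10469 under DcpS shRNA, without overlap (log2 fold change −0.14, SE 0.05; limma adjusted p 0.126). It was called with no filter (0.0357) and without DcpS shRNA 1 (0.000312, in a range of 0.000312 to 0.531). Ednrb, the endothelin receptor type B, had 641 and 671 normalised reads in the controls and 630.5 and 599 under DcpS shRNA (log2 fold change −0.09, 95% interval −0.25 to 0.06). Prom1, or prominin-1, a protein of apical membrane protrusions, had 1143 and 1159 in the controls and 1201 and 1234 under DcpS shRNA (0.08, 95% interval −0.04 to 0.21). These 3 progenitor-type genes had groups that did not overlap, as had 48.4% of all genes tested, and differences of at most 0.14 in size.

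The 4 astrocyte-type genes among these 7 had overlapping groups. Fgfr3, a fibroblast growth factor receptor, had a log2 fold change of 0.06 (95% interval −0.06 to 0.18). Lrig1, an inhibitor of growth factor receptor signalling, had a value of −0.02 (95% interval −0.17 to 0.13), and Tspan12, a tetraspanin of Norrin signalling, had 0.0048 (95% interval −0.20 to 0.21). Ntsr2, the low-affinity neurotensin receptor, was lowest of the 29 genes per length (0.213 RPKM), with 6.7 and 15.4 normalised reads in the controls and 17.3 and 13.4 under DcpS shRNA. At so few reads its interval, −0.39 to 1.46, does not separate a fall from a doubling. Intervals of the other 3 are narrower and exclude changes as large as that of Gja1.

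Among the metabolic enzymes, Aldh1l1, the folate enzyme much used as an astrocyte marker, had the largest difference. It had 97.9 and 103 normalised reads in the controls and 73.6 and 74.9 under DcpS shRNA, without overlap, and a log2 fold change of −0.43 (SE 0.16). It did not pass the test (limma adjusted p 0.156), and no alternative called it. Glul, which codes for glutamine synthetase, had 2533 and 2494 normalised reads in the controls and 2319.6 and 2471 under DcpS shRNA (log2 fold change −0.07, 95% interval −0.19 to 0.05). Ddah1, which breaks down methylated arginines that inhibit nitric oxide synthase, had a value of −0.05 (95% interval −0.16 to 0.07), and Acsl6, a long-chain acyl-CoA synthetase, 0.0089 (95% interval −0.12 to 0.13). Of these 4 enzymes, limma, edgeR and DESeq2 called 0, and 1 had an unadjusted p under 0.05 in limma (Aldh1l1). A count of 0 of 4 is near the 5.79% called by limma among all genes tested, and nothing is read from it.

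Set side by side, the progenitor-type genes had a median log2 fold change of 0.11 (range −0.50 to 0.39), with 8 values above 0 and 4 below. The astrocyte-type genes had a median of −0.02 (range −1.13 to 0.54), with 8 above 0 and 9 below. Of the 12 progenitor-type genes 1 fell and 2 rose, and of the 17 astrocyte-type genes 4 fell and 3 rose. Groups did not overlap in 10 of the progenitor-type genes, 4 lower and 6 higher, and in 10 of the astrocyte-type genes, 6 lower and 4 higher, where 48.4% of all genes tested had groups that did not overlap and 5.79% were called. Medians of the 2 kinds differed by 0.127, and this difference was not tested. In single libraries, taken against the mean of the controls, it was 0.0074 and −0.0074 in the controls and 0.0485 and 0.136 under DcpS shRNA, so it rests largely on DcpS shRNA 2. Without that library it was 0.0485, and without control 2 it was 0.0651. By summed level, which the abundant genes dominate, progenitor-type genes stood at 101% of the control mean under DcpS shRNA and astrocyte-type genes at 97.4%. Calls in both directions occurred among both kinds of gene.

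Per length, the order of mean levels ran from Fabp7 through Cst3 (86.6 RPKM), Dbi (80.2 RPKM) and Mt1 to Aldh1l1 (0.975 RPKM), Aqp4 and Ntsr2. The 3 lowest genes are all astrocyte-type, as is Gja1, next above them at 2.79 RPKM. Aqp4 and Gja1 had the 2 largest falls of the 29, while Sparcl1, at 31.0 RPKM, ranked 9th, so the genes that fell were not only those of low level. Dbi and Mt1 rose by little and were among the 4 highest.

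Other genes of the same cell types, from lists drawn up with earlier results known, were mostly not called. Of 22 tested genes on a second list of radial glia genes, 3 rose and 19 were not called, with a median of 0.05. The growth factor receptor Fgfr2 rose by 0.37 (SE 0.07) on the log2 scale, the transcription factor Tfap2c by 0.29 (SE 0.06) and the intermediate filament gene Nes by 0.27 (SE 0.06). Nes had 4329.9 and 4333 normalised reads in the controls and 5562 and 4915 under DcpS shRNA. Limma adjusted p-values of the 3 genes were 0.00432, 0.0118 and 0.0108, and the call of Tfap2c ended without control 2 (0.155) and with DESeq2 (0.0733, in a range of 0.000833 to 0.155). Vim and Sox9, which are on this list and the astrocyte list, had values of 0.02 (SE 0.05) and 0.06 (SE 0.07). By summed level the list stood at 100.6% of the control mean.

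On a second list of astrocyte genes, 20 were tested, 4 fell, 2 rose and 14 were not called, with a median of −0.03. The filament gene Gfap had 111 and 193 normalised reads in the controls and 78.1 and 77.1 under DcpS shRNA, and its log2 fold change was −0.91 (SE 0.21; limma adjusted p 0.0241). Control 2 stood far above control 1, and without control 2 the value was −0.51 (adjusted p 0.212, the highest of its 13 alternatives, which began at 2.149e-08). Slc4a4, a sodium bicarbonate cotransporter, fell by 0.53 (SE 0.09; limma adjusted p 0.00170). Slc7a10, an amino acid transporter, had 25.7 and 31.8 normalised reads in the controls and 50 and 60.3 under DcpS shRNA, and rose by 0.92 (SE 0.24; limma adjusted p 0.030). Its call ended without control 1 or without DcpS shRNA 2 (adjusted p 0.135 in each, in a range of 0.00472 to 0.135). Further called genes, chosen here after their values were seen, were Pla2g7 (−0.49, SE 0.10), which fell, and the glycolytic enzyme Aldoc (0.21, SE 0.05), which rose. The call of Aldoc ended without control 1 (limma adjusted p 0.132) and without control 2 (0.205). As among the 29 genes, calls went in both directions, and the summed level was 100.4% of the control mean. Of the 5 genes on this list that did not pass the filter, Gjb6 and Gpr37l1 were at 0 reads in at least 1 library.

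**Figure D3:**
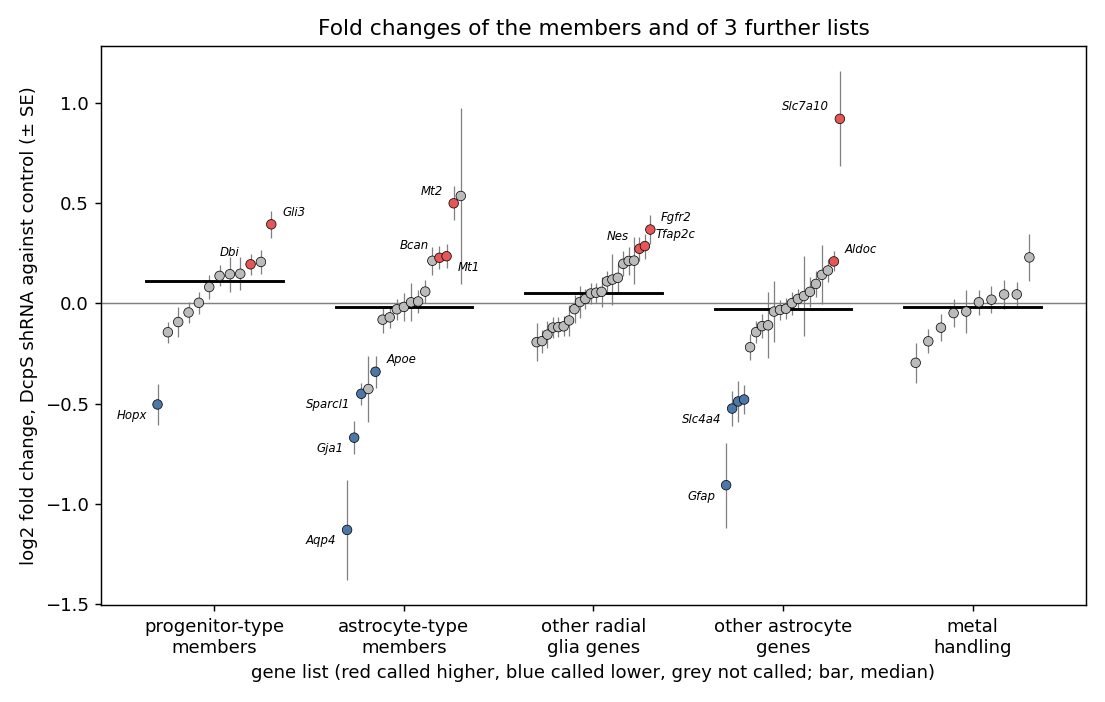
Points are log2 fold changes with their SE for the progenitor-type and astrocyte-type genes and for the 3 further lists, and horizontal bars are list medians, which run from −0.03 to 0.11. Red genes were called higher and blue genes lower, grey genes were not called, not every called gene carries its name, and both colours appear among the progenitor-type, astrocyte-type and other astrocyte genes.

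Markers of other cell types moved in these libraries too. Of 15 genes of fibroblasts and matrix, 14 fell, and their summed level was 63.4% and 61.4% of the control mean in DcpS shRNA 1 and 2. Their sum was 1255 and 1351 CPM in the controls and 826 and 800.1 CPM under DcpS shRNA. The largest falls were in Thbs2 (−1.16, SE 0.14), Fbn1 (−1.08, SE 0.18) and Postn (−1.07, SE 0.08), of which Fbn1 was not called with the replicate block (limma adjusted p 0.299) or with no filter (0.0947, in a range of 5.87e-25 to 0.299). Endothelial and mural markers summed to 63.8% and 59.5% of the control mean, 41.6 and 44.9 CPM in the controls against 27.6 and 25.7 CPM. Pdgfrb alone, with a mean of 21.1 CPM, made up most of this sum. Of 8 tested genes, 3 were called lower (Acta2, Kdr and Pdgfrb), and DESeq2 did not call Kdr (adjusted p 0.204). Values of 6 of the 8 lay below 0, while Pecam1 (0.93, SE 0.44) and Tagln (0.51, SE 0.33) lay above 0 and were not called. Cdh5, Flt1, Tek and Cldn5 had means of at most 0.361 CPM, and Tek and Cldn5 were at 0 in at least 1 library. Choroid plexus and ependyma markers summed to 76.2% and 82.0%, and Ttr, with a mean of 228 CPM, made up most of that sum. Of 6 tested genes, 2 were called lower (Aqp1 and Ttr), and DESeq2 did not call Aqp1 (adjusted p 0.345). Values of 4 of the 6 lay below 0, that of Clic6 at −0.04 (SE 0.11). Foxj1 (0.45, SE 0.13) and Kcne2 (0.48, SE 0.21) lay above 0, with groups that did not overlap, and were not called. Kl was at 0 in at least 1 library. Gja1, Sparcl1, Apoe and Aqp4 fell in the same libraries, and connexin 43 and apolipoprotein E are known in fibroblasts and other cells besides astrocytes. The part of these cells in those falls was not tested.

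Intermediate progenitor markers stood at 111% and 107% of the control mean under DcpS shRNA, against 103% and 96.9% in controls 1 and 2. Of these 10 genes, 4 were called higher (Neurod4, Btg2, Rhbdl3 and Mfap4), and DESeq2 did not call Neurod4 (adjusted p 0.1275). The 6 not called were Eomes (0.05), Insm1 (0.0045), Neurog2 (−0.19), Hes6 (0.12), Gadd45g (0.20) and Neurog1 (0.69), given as log2 fold changes. Neuron markers stood at 97.5% and 97.0%, with 1 of 14 called lower and 3 higher. Oligodendrocyte lineage markers stood at 96.5% and 99.9%, and Sox10 was at 0 in at least 1 library. Of 8 tested genes 1 was called higher (Mbp) and 1 lower (Pdgfra), and DESeq2 called 0. Pdgfra is also on the fibroblast and matrix list and is counted among its 14 falls. Microglia and macrophage markers summed to only 18.9 to 20.5 CPM, with 1 of 11 tested genes called higher, and P2ry12 and Trem2 were at 0 in at least 1 library. In the same libraries Gli3, Dbi, Nes, Fgfr2 and Tfap2c rose and Hopx fell. Most genes of these kinds were not called, 9 of 12 progenitor-type genes and 19 of 22 other radial glia genes. Whether any of these changes is linked to the values of the intermediate progenitor markers was not tested.

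**Figure D4:**
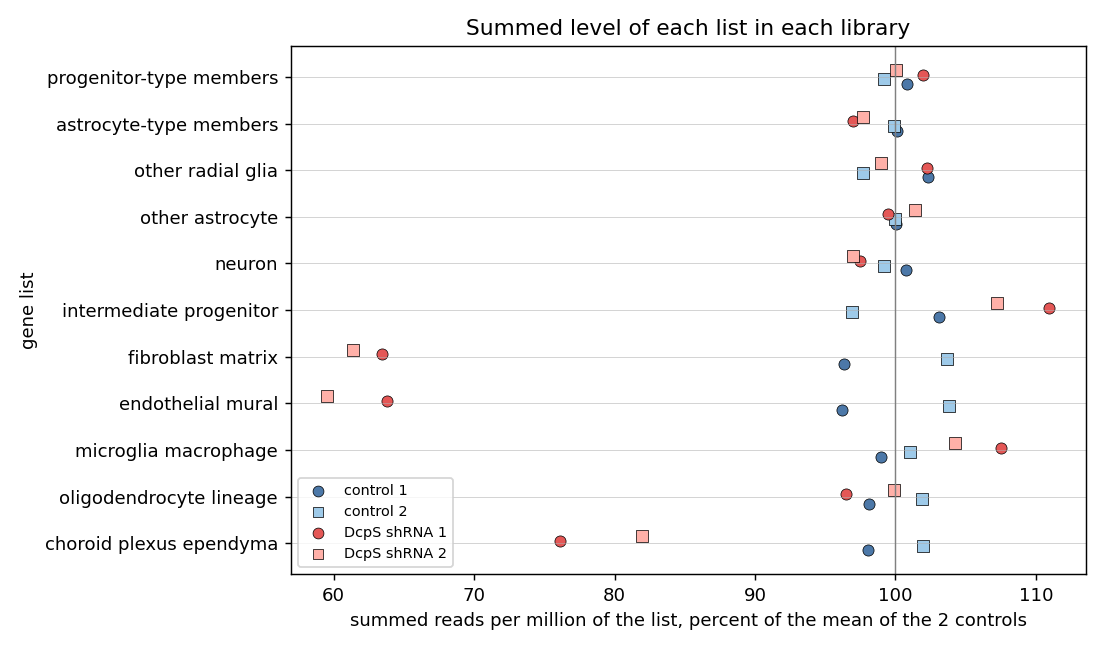
Each row is a gene list and each point a library, with the summed CPM of the list as a percentage of the mean of the 2 controls on the x axis. The progenitor-type and astrocyte-type genes lie within 97.0% to 102% in the DcpS shRNA libraries. The fibroblast list and the endothelial and mural list lie between 59.5% and 63.8%.

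Earlier results of these data pointed to the 7-base words ACGTGCA and CACGTGC, which overlap in 6 bases and both occur in the Dcps transcript. The words were searched on the sense strand of annotated 3′ UTRs. They were found in 7.95% of 13803 tested genes that could be scanned, in 33.1% of the 646 called lower and in 6.25% of the 368 called higher. Since the words were chosen from earlier results of these same data, these shares are not independent of that choice. Nothing is read from them. Among the 29 genes, 3 carry a word there: Gja1, which fell, Ddah1, which was not called, and Mt1, which rose. The other 4 genes that fell (Aqp4, Hopx, Sparcl1 and Apoe) do not have either word in an annotated 3′ UTR. These 3′ UTR sites are shown with the Dcps site, each as 25 bases of the transcript strand, 5′ to 3′, with the word in capitals.
Dcps, chr9:35124747-35124771, minus strand: atcacctgcACGTGCAtttcacagc
Gja1, chr10:56388748-56388772, plus strand: gcttgcagaACGTGCAcctggggtg
Ddah1, chr3:145893416-145893440, plus strand: catcctgttACGTGCAgtcagttac
Mt1, chr8:94180169-94180193, plus strand: ggacaagtgCACGTGCtgtgcctga
The Dcps and Mt1 words lie in coding sequence in one annotated transcript and in a 3′ UTR in another, and the printed sites of Gja1 and Ddah1 lie in a 3′ UTR. The Gja1 transcript holds 3 further matches outside it, 1 in coding sequence and 2 in the 5′ UTR or at its boundary. Lrig1 and Ntsr2, neither of them called, hold a match in coding sequence only. For Aqp4, matches outside the 3′ UTR are not reported here. The sequence of the shRNA is not given in the sources used here, and the part of these words in any change was not tested. Ddah1 had 3049 and 3199.7 normalised reads in the controls and 3032 and 3019.5 under DcpS shRNA.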

How the data were processed

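The deposited table holds 1 column per library, with values that are a signal scaled by the authors: each is a whole multiple of its column's smallest positive value. Division by it returned whole reads for 100% of the values (tolerance 0.001). The implied factors, 0.895 to 1.10, equalled median-of-ratios size factors. HISAT2 2.2.0, SAMtools 1.3.1, Picard, featureCounts, DESeq2 and GRCm38 are named, without roles, in the submitters' processing notes. For annotation, strand and multi-mapping, the settings were not given in the sources used here.

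Genes kept by edgeR's filterByExpr (minimum count 10) on the recovered reads, 18110 of 32681, were tested with limma 3.58.1 (R 4.3.3) on log2(value + 1), with robust, trended empirical Bayes, no term but group, two-sided, and Benjamini-Hochberg adjusted p under 0.05. Every adjusted p in the text is of this kind unless edgeR 4.0.16 or DESeq2 1.42.0 is named. The pseudocount understates changes of low genes, and the scaling would hide a shift of all transcripts together. For 2 samples against 2 an exact permutation p cannot be below 0.333, so p-values rest on the spread pooled across genes. On simulated reads for this comparison the script was run on 18110 genes with 200 changed. The simulation gave every gene the same spread setting, unlike the data. Its outcome is not reported here, and nothing is read from it.

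RPKM used library totals and GENCODE M21 exon lengths. Promoters are RefSeq's, for 26 of the 29 genes. The members, lists and words were chosen with earlier results of these data known. The rule named every member, Dcps and the 3 called genes with the largest change in each other list, and other genes were chosen after their values were seen. For markers of other cells except fibroblasts, counts and sums are given, with the genes that were called or ran against them named for some lists. Alternatives were other pseudocounts, filters, scalings and tools, a replicate block, and each library left out. Same-numbered libraries did not deviate together (correlation 0.0429 over tested genes), so the numbers were not taken as pairs. Some genes of the other lists are not reported here.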

Additional observations from a re-analysis of the deposited data

How the results depend on the processing

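Over 13 alternatives, none of the called genes among the 29, and none of the called genes named from the other radial glia, other astrocyte and fibroblast lists, changed direction. Counts and sums of the other lists were not run under the alternatives, apart from the edgeR and DESeq2 results given in the text. Over all genes, 1048 calls became 453 with DESeq2, 1626 with the replicate number as a block (replicate block) and 747 to 1745 with a library left out, the highest without DcpS shRNA 1. The other alternatives gave 963 to 1160. Among the 29 genes, 5 lower calls became 2 with DESeq2 and 4 to 6 with a library left out, and 5 higher calls became 2 with DESeq2 and 2 to 5 with a library left out, the lowest without control 2. The replicate block gave 5 lower and 6 higher calls. The numbers of the libraries do not pair them (correlation of deviations 0.0429). The difference of medians between progenitor-type and astrocyte-type genes, 0.127, ran from 0.0485 (without DcpS shRNA 2) to 0.136 with a library left out, with 0.0651 without control 2. The causes were not tested. With the minimum of 5 CPM, 26 of the 29 genes were tested, since Aqp4, Aldh1l1 and Ntsr2 did not pass. Depth limits what can be said of Ntsr2 and Aqp4.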

Other observations

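Among 5 tested genes within 200000 bases of Mt1, Mt2 or Mt3 on chromosome 8, chosen after values were seen, there were 0 calls in limma, edgeR and DESeq2, with 0 at an unadjusted p under 0.05 in limma. Nudt21, a factor of mRNA 3′ end processing, had a log2 fold change of 0.09 (SE 0.05), and Nup93, a nuclear pore component, 0.07 (SE 0.06). Gnao1, a G protein subunit abundant in neurons, had 0.02 (SE 0.05), Ogfod1 −0.02 (SE 0.09) and the ciliary gene Bbs2 −0.05 (SE 0.09). The lowest adjusted p among these 5 neighbours was 0.397, that of Nudt21 (limma, Benjamini-Hochberg). Both DcpS shRNA libraries were above both controls for Nudt21 and Nup93, and below both for Bbs2. With 5.79% of all genes tested called, 0 of 5 is near the background, and whether these genes differ from Mt1 and Mt2 was not tested.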
